A study of Solanum lycopersicum with 9 samples.

Results

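RNA levels in imbibed tomato (Solanum lycopersicum) seeds of 2 knockout lines, SlLBD40 and SlWRKY37, were compared together with wild type (WT) seeds, to describe the genes that moved the same way in both genotypes. All 9 libraries of the series entered, 6 of them from knockout seeds and 3 from WT seeds. There were 3 SlLBD40 knockout, 3 SlWRKY37 knockout and 3 WT libraries, all from seeds at 6 h of imbibition, and each knockout genotype was given the same weight. The labels name no treatment other than imbibition and give no allele, no number of lines and no separate plants or seed lots. P-values therefore measure only the spread between these samples.

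A dry seed holds RNA made during its maturation, including that for oil body proteins, storage proteins and late embryogenesis abundant (LEA) proteins, which help cells to survive drying. When the seed takes up water, these messages are lost and messages for enzymes that loosen and digest cell walls appear, in the embryo and in the endosperm around it. Abscisic acid holds back this change and gibberellin promotes it. LOB domain proteins (the family of SlLBD40) and WRKY proteins (that of SlWRKY37) are transcription factors found in plants.

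Levels are expression values taken as FPKM, fragments scaled to transcript length and to the mapped total, a scale per length on which genes can be set side by side. Read counts are not part of the table used here, and the depth of each library is unknown. The summed values of the libraries lay between 856291 and 918103, and 23206 to 24507 genes were above 0. The correlation across genes lay between 0.9596 and 0.9778 for libraries of 1 group, between 0.912 and 0.9529 for a knockout library with a WT library, and between 0.9083 and 0.9477 for an SlLBD40 with an SlWRKY37 knockout library. These are descriptions across genes that share a library, not over replicates. Replicate 3 of the SlWRKY37 knockout lay nearest to WT of the 6 knockout libraries in the summed oil body, LEA and storage protein levels, and counts without it are given below.

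The gene described as WRKY transcription factor 37 on chromosome 1 was too low to be tested, at 1.11, 1.89 and 0.74 FPKM in the SlLBD40 knockout, 0.23, 0 and 0 in the SlWRKY37 knockout and 0.28, 0.7 and 0.92 in WT. LOB domain-containing protein 40 on chromosome 5 had 42.86, 43.85 and 36.07 FPKM in the SlLBD40 knockout, 4.77, 9.5 and 20.92 in the SlWRKY37 knockout and 20.41, 5.6 and 11.82 in WT. It was thus higher, not lower, in the 3 libraries labelled as its knockout (log2 difference from WT 1.78, adjusted p = 0.0169 with limma). The log2 difference of the SlWRKY37 knockout from WT was -0.15 (adjusted p = 0.886), and that of the average of both knockouts was 0.81 (adjusted p = 0.179). Which annotated gene was edited was not settled here, and an edited gene may still be transcribed.

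Over all genes, the average of both knockouts differed from WT at 4392 of 18346 tested genes (23.9%), with 2228 higher (12.1%) and 2164 lower (11.8%). A gene was called when its Benjamini-Hochberg adjusted p from limma, over all tested genes, was below 0.05. Of the 4392 genes, 4234 had the same sign of change in each knockout and 158 had opposite signs. Choosing genes by their average, with WT shared by both contrasts, favours the same sign, so these counts are a description only. In the SlLBD40 knockout alone 6826 genes were called (37.2%), 3530 of them lower (19.2%), and in the SlWRKY37 knockout alone 1721 (9.38%), of which 884 were higher (4.82%) and 837 lower (4.56%). Of the genes called in the average, 2853 were also called in the SlLBD40 knockout but not in the SlWRKY37 knockout, 338 in the SlWRKY37 knockout but not in the SlLBD40 knockout, and 160 in neither.

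Genes called in each knockout in the same direction numbered 1033 (5.63%), of which 573 were higher (3.12%) and 460 lower (2.51%). Both contrasts use the same 3 WT libraries, so a WT library that lies high or low moves both. Among the 573 genes, 569 had all 6 knockout libraries above all 3 WT libraries, and among the 460, 456 had all 6 below. Over all tested genes such separation was found upward at 8.17% and downward at 7.78%. The choice of genes called in each knockout from these same libraries all but fixes their separation. It also shapes the medians that follow, so all of these are descriptions only. The median log2 difference of the 573 higher genes was 0.98 in the SlLBD40 knockout and 0.94 in the SlWRKY37 knockout, and that of the 460 lower genes was -1.07 and -0.996. A change of at least 1 on the log2 scale in each knockout was found for 170 higher and 173 lower genes. The median level of the higher genes was 20.9 FPKM in the SlLBD40 knockout, 20.5 in the SlWRKY37 knockout and 9.5 in WT, and that of the lower genes was 13.6, 14.6 and 30.6 FPKM in the same order.

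The count of 1033 depended on single libraries. It was 462 without WT replicate 1, 586 without WT replicate 3, 652 without SlLBD40 knockout replicate 2, 624 without SlWRKY37 knockout replicate 1 and 1639 without SlWRKY37 knockout replicate 3. The 4392 genes called in the average became 2000, 2534 and 2347 without WT replicate 1, 2 or 3.

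**Figure D1:**
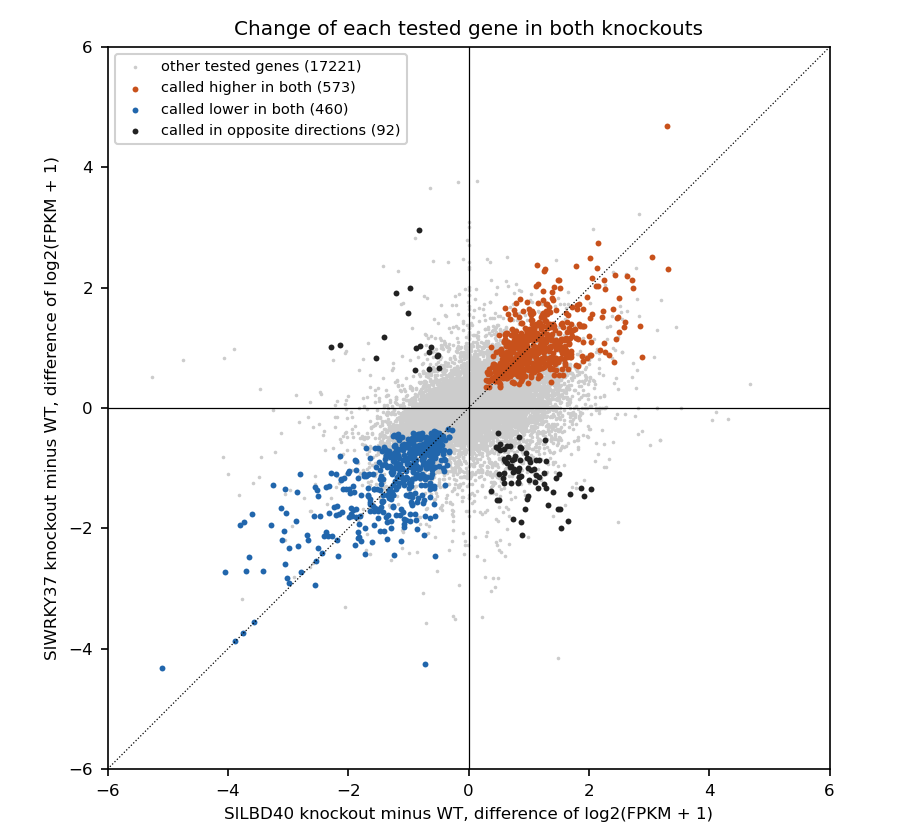
Difference of log2(FPKM + 1) from WT for each of 18346 tested genes, in the SlLBD40 knockout on the x axis and in the SlWRKY37 knockout on the y axis. Genes called in both knockouts are coloured: 573 lie at the upper right, 460 at the lower left, and 92 called in opposite directions lie in the other corners; the dotted line marks equal change, and both axes share the WT libraries.

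The leading genes, and most others named below as moving the same way, were chosen by a rule that required no overlap with WT. Their separation from WT is thus set by the choice and is given as a description. The leading lower genes included several that were close to absent from both knockouts. Homeobox-leucine zipper protein ROC5 (chromosome 6, copy 3), related to factors that set epidermal cell fate, had 0, 0.06 and 0.02 FPKM in the SlLBD40 knockout, 0.03, 4.28 and 0 in the SlWRKY37 knockout and 34.32, 33.53 and 34.34 in WT. The groups did not overlap, and replicate 2 of the SlWRKY37 knockout was the only knockout library above 1. The gene fell by 4.71 ± 0.45 (SE) on the log2 scale in the average (limma, adjusted p = 0.000343). UDP-glycosyltransferase 76E1 on chromosome 12, which adds sugars to small molecules, was listed at 0 in all 6 knockout libraries and at 9.87, 7.95 and 15.86 FPKM in WT (adjusted p = 4.25e-05). FBD domain, Leucine-rich repeat domain, L domain-like protein on chromosome 4 had 0.43, 0 and 0.08 FPKM in the SlLBD40 knockout, 0, 0.45 and 0.09 in the SlWRKY37 knockout and 12.87, 19.7 and 11.98 in WT. Nucleobase-ascorbate transporter 6-like protein on chromosome 4, a membrane carrier, averaged 0.333 ± 0.123 FPKM in the SlLBD40 knockout, 0.537 ± 0.271 in the SlWRKY37 knockout and 9.84 ± 1.16 in WT (SD, n = 3 each; adjusted p = 4.25e-05). These 4 genes lost nearly all of their WT level in both genotypes, and the test between the knockouts called none of them.

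Other leading lower genes kept part of their level. For alkaline alpha-galactosidase seed imbibition protein (chromosome 7), an enzyme that takes galactose from raffinose sugars, the values were 1.55, 1.97 and 1.22 FPKM in the SlLBD40 knockout, 1.25, 1.95 and 2.63 in the SlWRKY37 knockout and 14.49, 15.14 and 11.15 in WT. Every knockout library was far below every WT library, and the gene fell by 2.41 ± 0.19 (SE) on the log2 scale (limma, adjusted p = 0.000141). Protein phosphatase 2C on chromosome 1 (copy 2), of a family with members that damp abscisic acid signalling, had 1.23, 1.21 and 2.24 FPKM in the SlLBD40 knockout, 2.18, 2.87 and 4.22 in the SlWRKY37 knockout and 21.87, 20.37 and 15.29 in WT (adjusted p = 0.000137). 2-alkenal reductase (NADP(+)-dependent) on chromosome 1, which detoxifies reactive products of lipid oxidation, fell in both, although replicate 3 of the SlWRKY37 knockout (11.93 FPKM) lay well above replicates 1 and 2 (1.37 and 2.43) and nearer to WT (25.62 to 44.27). The 17.5 kDa class I heat shock protein on chromosome 4, a small chaperone, showed the same library apart, with 21.89, 26.27 and 130.76 FPKM in the SlWRKY37 knockout, beside 32.46, 30.61 and 29.87 in the SlLBD40 knockout and 384.38, 199.54 and 236.04 in WT (adjusted p = 0.00325). Alanine aminotransferase on chromosome 3, which links alanine and pyruvate, was below 1 FPKM in every knockout library but ranged widely in WT, at 17.99, 1.77 and 7.9. Wound-responsive family protein on chromosome 12 averaged 17.2 ± 12.5 FPKM in the SlLBD40 knockout, 26.4 ± 10.3 in the SlWRKY37 knockout and 168 ± 15.3 in WT (SD, n = 3 each).

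Genes higher in both knockouts covered inhibitors, cell surface proteins, hormone and lipid enzymes and a heat shock regulator. Among the leading ones, metallocarboxypeptidase inhibitor precursor on chromosome 6, which blocks carboxypeptidases, had 208.56, 246.85 and 238.09 FPKM in the SlLBD40 knockout, 216.04, 124.77 and 129.5 in the SlWRKY37 knockout and 29.96, 38 and 34.92 in WT. The groups were far apart, and the gene rose by 2.42 ± 0.17 (SE) on the log2 scale (limma, adjusted p = 7.97e-05). Arabinogalactan peptide on chromosome 10, a glycoprotein of the cell surface, had 41.23, 46.38 and 45.22 FPKM in the SlLBD40 knockout, 73.78, 81.61 and 50.24 in the SlWRKY37 knockout and 8.34, 8.18 and 11.14 in WT (log2 difference 2.45, adjusted p = 5.12e-05). 1-aminocyclopropane-1-carboxylate oxidase 2 on chromosome 12, which carries out the last step of ethylene synthesis, had 8.44, 14.09 and 10.15 FPKM in the SlLBD40 knockout, 15.67, 6.6 and 2.98 in the SlWRKY37 knockout and 0.06, 0.52 and 0.72 in WT. All knockout libraries exceeded all WT libraries, by a wide margin in 5 of 6 and least in replicate 3 of the SlWRKY37 knockout. Heat shock transcription factor on chromosome 9 (copy 1), of the family that switches on chaperone genes, averaged 44.2 ± 12.8 FPKM in the SlLBD40 knockout, 40.3 ± 12 in the SlWRKY37 knockout and 8.35 ± 2.02 in WT (SD, n = 3 each; adjusted p = 0.000468). Beta-D-xylosidase 1 on chromosome 1, which trims xylose from wall polymers, averaged 18.3 ± 1.67, 18.8 ± 9.54 and 4.52 ± 0.509 FPKM in SlLBD40 knockout, SlWRKY37 knockout and WT seeds. Phosphoethanolamine N-methyltransferase on chromosome 12, an enzyme of the choline pathway of membrane lipids, averaged 38.2 ± 3.76 FPKM in the SlLBD40 knockout, 36.5 ± 13.2 in the SlWRKY37 knockout and 10.1 ± 2.49 in WT.

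The other leading higher genes were major latex allergen Hev b 5-like on chromosome 3, Cytochrome P450 on chromosome 8 (copy 1), of a family of oxidising enzymes, a putative plant invertase or pectin methylesterase inhibitor on chromosome 3 (copy 3), transmembrane protein on chromosome 2 (copy 9), Histone H4 on chromosome 6 (copy 3) and a gene described as squamous cell carcinoma antigen recognized by T-cells 3 isoform X3 on chromosome 7, whose human namesake acts in the recycling of splicing particles. The expression of major latex allergen Hev b 5-like on chromosome 3 was 175.8, 179.46 and 226.86 FPKM in the SlLBD40 knockout, 118.25, 50.97 and 146.56 in the SlWRKY37 knockout and 11.32, 33.2 and 16.75 in WT, with no overlap. Histone H4 on chromosome 6 (copy 3) was close to the threshold in the SlWRKY37 knockout (adjusted p = 0.0499), where replicate 3 had 0.85 FPKM beside 6.98 and 7.77 in the others, and WT had 0.68, 0.69 and 0.

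**Figure D2:**
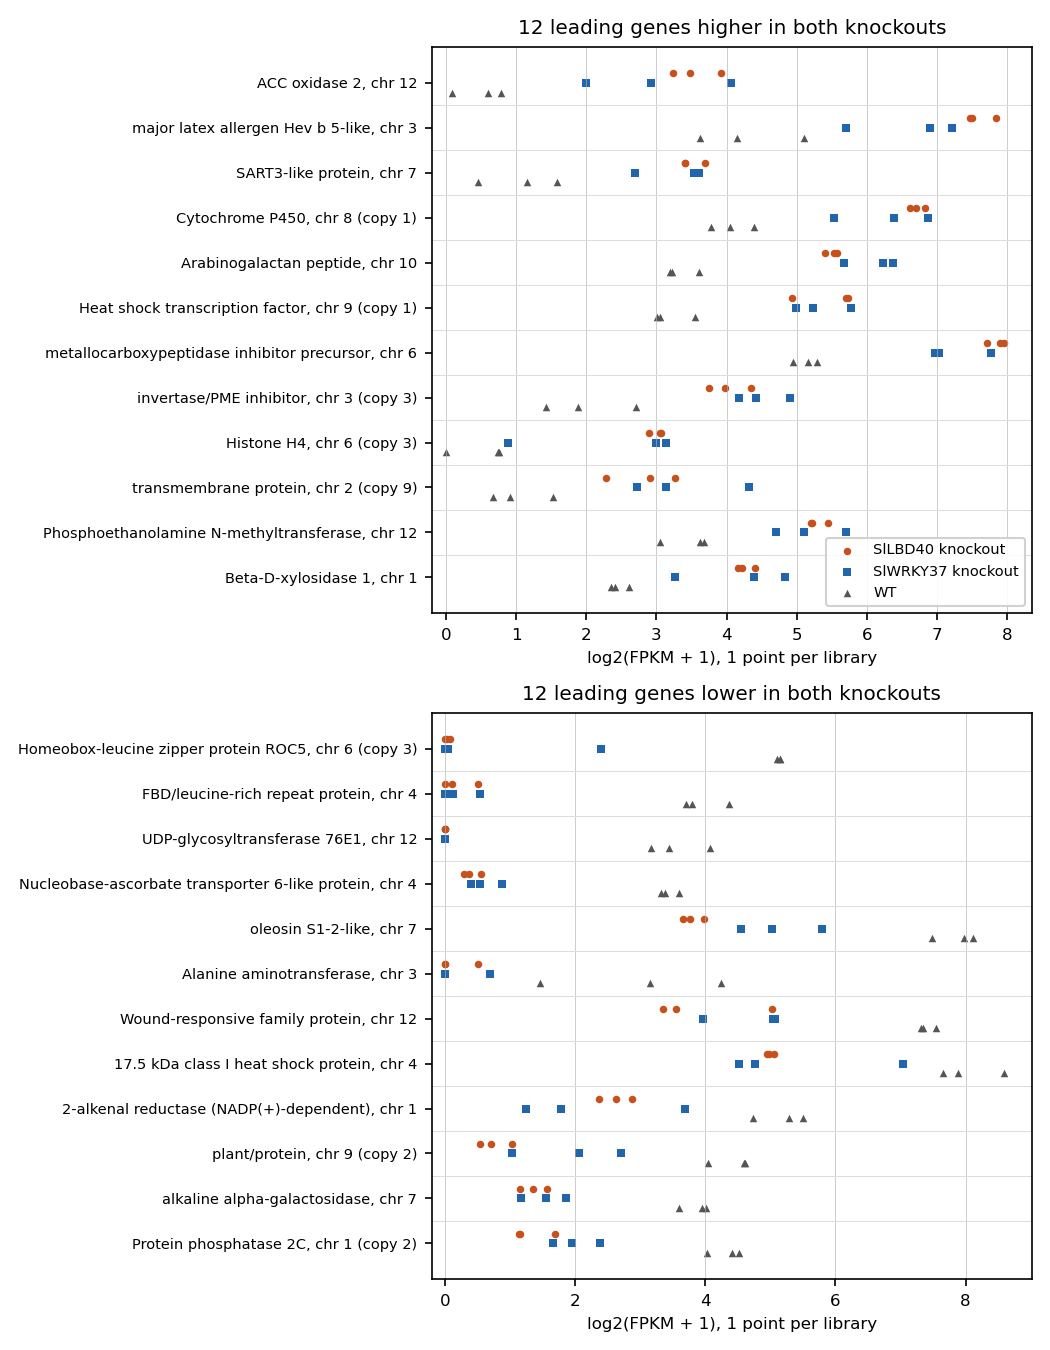
Level of the 12 leading genes higher (top) and the 12 leading genes lower (bottom) in both knockouts, with 1 point per library on a log2(FPKM + 1) axis and the groups stacked in the order SlLBD40 knockout, SlWRKY37 knockout, WT. In every row the knockout points lie to 1 side of all WT points, which the rule for naming these genes required. ROC5 on chromosome 6 and UDP-glycosyltransferase 76E1 on chromosome 12 show knockout points at or near 0. The exception is SlWRKY37 knockout replicate 2 for ROC5, at 4.28 FPKM.

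Proteins that coat oil bodies, the stores of seed oil, were mostly lower, with the highest share of genes called lower among the lists described here. Of 15 tested genes, 13 were lower in the average (86.7%, beside 11.8% of all tested genes) and 1 was higher; 11 were lower in each knockout. The median log2 difference of the 15 was -1.20, beside 0.0059 for all tested genes. Oleosin S1-2-like had the largest change: oleosin S1-2-like on chromosome 7 had 14.75, 12.63 and 11.58 FPKM in the SlLBD40 knockout, 22.3, 31.66 and 54.31 in the SlWRKY37 knockout and 249.93, 275.42 and 177.33 in WT. The knockout libraries stood far below WT, and the fall was larger in the SlLBD40 knockout (difference between the knockouts -1.32 on the log2 scale, adjusted p = 0.00853). Oleosin on chromosome 6 (copy 1) had 928.38, 972.28 and 702.86 FPKM in the SlLBD40 knockout, 732.75, 603.76 and 1022.22 in the SlWRKY37 knockout and 2425.69, 2468.17 and 1669.82 in WT (log2 difference -1.41, adjusted p = 0.00136). Oleosin on chromosome 3 (copy 1), the most abundant member, averaged 803 ± 69.9 FPKM in the SlLBD40 knockout, 1360 ± 617 in the SlWRKY37 knockout and 2880 ± 457 in WT. For oil body-associated protein 2A-like on chromosome 3 the values were 144.66, 135.05 and 88.89 FPKM in the SlLBD40 knockout, 52.8, 90.06 and 181.17 in the SlWRKY37 knockout and 501.73, 505.35 and 315.98 in WT. The exceptions were Caleosin on chromosome 1 (copy 2), which rose (log2 difference 0.78, adjusted p = 0.0223), and Oleosin on chromosome 2, which was not called (-0.99, adjusted p = 0.0537). Without WT replicate 2, 7 of the genes were lower in each knockout, and without any WT replicate no member was higher. In seeds measured whole, fewer cells of a type and less RNA per cell cannot be told apart.

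LEA proteins and dehydrins, which protect drying cells, were mostly lower as well. Of 43 tested genes, 24 were lower (55.8%) and 5 higher (11.6%) in the average, 14 were not called, and 20 were lower and 3 higher in each knockout; the median log2 difference was -0.97. The 11 kDa late embryogenesis abundant protein gene (chromosome 10, copy 1), the most abundant of them, had 6001.6, 6247.73 and 4709.19 FPKM in the SlLBD40 knockout, 9463.06, 6201.6 and 9515.28 in the SlWRKY37 knockout and 29544.52, 26081.03 and 21681.85 in WT. Its ratio of the knockout mean to WT was 0.273 (log2 difference -1.91 ± 0.17 SE, adjusted p = 0.00028). Dehydrin on chromosome 2 had 1676.91, 1799.56 and 1446.29 FPKM in the SlLBD40 knockout, 2181.68, 1670.38 and 2202.59 in the SlWRKY37 knockout and 5003.71, 4575.93 and 4039.02 in WT (adjusted p = 0.000343). Late embryogenesis abundant protein on chromosome 6 had 932.93, 931.57 and 747.31 FPKM in the SlLBD40 knockout, 1415.21, 1187.94 and 3374.73 in the SlWRKY37 knockout and 6065.88, 4719.83 and 4137.35 in WT. For each of these 3 genes all knockout libraries were below all WT libraries, with replicate 3 of the SlWRKY37 knockout nearest to WT in the last. The seed maturation protein on chromosome 7 fell by 2.20 on the log2 scale (adjusted p = 0.00142). The most abundant of the 3 members higher in each knockout was Late embryogenesis abundant protein on chromosome 11 (copy 1), with 47.32, 47.4 and 54.79 FPKM in the SlLBD40 knockout, 42.95, 63.36 and 41.74 in the SlWRKY37 knockout and 23.78, 28.14 and 22.99 in WT.

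Seed storage proteins, which feed the seedling with nitrogen, were lower at 8 of 12 tested genes in the average (66.7%) and higher at 0, with a median log2 difference of -1.90. Called lower in each knockout were 3, and 1, 11-S seed storage protein on chromosome 1 (copy 3), was called higher in the SlLBD40 knockout (log2 difference 0.82, adjusted p = 0.0257) and lower in the SlWRKY37 knockout (-1.25, adjusted p = 0.0123). A gene described as vicilin-like seed storage protein At2g18540 (chromosome 2) had 106.75, 100.75 and 112.31 FPKM in the SlLBD40 knockout, 78.96, 91.98 and 93.19 in the SlWRKY37 knockout and 324.68, 414.69 and 328.21 in WT, with little spread within groups (adjusted p = 4.25e-05). Vicilin-like antimicrobial peptides 2-1 on chromosome 9 had 43.6, 60.09 and 100.7 FPKM in the SlLBD40 knockout, 130.51, 159.03 and 610.72 in the SlWRKY37 knockout and 1017.23, 910.21 and 700.05 in WT. The third was 2S sulfur-rich seed storage protein 2-like on chromosome 8 (log2 difference -1.94, adjusted p = 0.00191). In this gene and the antimicrobial vicilin gene, replicate 3 of the SlWRKY37 knockout was the knockout library nearest to WT. Without that replicate 9 storage genes were lower in each knockout, and 1 was without SlLBD40 knockout replicate 2, SlWRKY37 knockout replicate 1 or 2, or any WT replicate.

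As a share of the library total, the LEA and dehydrin genes took 2.49 ± 0.294% in the SlLBD40 knockout, 2.91 ± 0.596% in the SlWRKY37 knockout and 6.69 ± 0.711% in WT (SD, n = 3 each). Oil body genes took 0.509 ± 0.057%, 0.513 ± 0.178% and 1.14 ± 0.167% in the same order. Storage proteins took 0.091, 0.105 and 0.137% in the SlLBD40 knockout and 0.195, 0.264 and 1.01% in the SlWRKY37 knockout, against 1.13, 1.02 and 0.848% in WT, so that here replicate 3 of the SlWRKY37 knockout overlapped WT. The 460 genes lower in each knockout together took 4.34 ± 0.387%, 4.98 ± 1.1% and 11.5 ± 1.21%, and the 573 higher genes 5.46 ± 0.179%, 5.27 ± 0.429% and 2.57 ± 0.03%; these last sums follow from how the genes were chosen and are given as a description only.

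**Figure D3:**
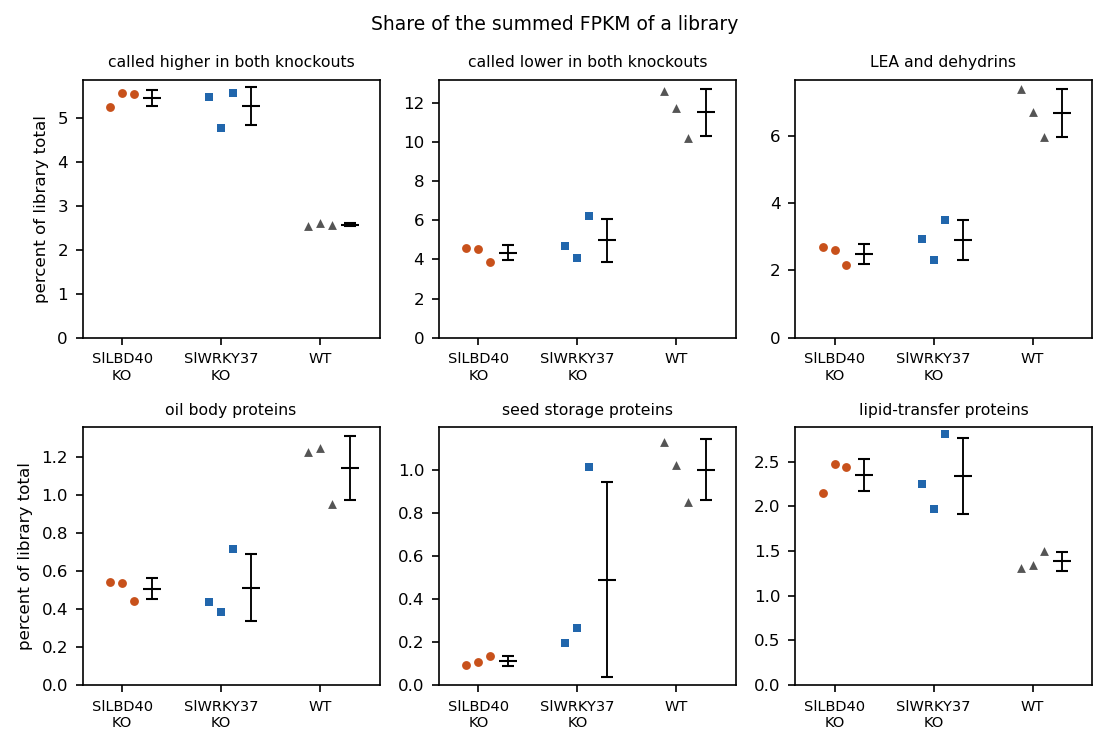
Percent of the summed FPKM of a library taken by 6 gene groups, with 1 point per library and the mean ± SD of 3 libraries beside it, for SlLBD40 knockout, SlWRKY37 knockout and WT. LEA and oil body shares of all 6 knockout libraries lie below those of the 3 WT libraries; in the storage protein panel SlWRKY37 knockout replicate 3, at 1.01%, lies among the WT points.

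Aquaporins, channels for water, had members that rose and members that fell. Both vacuolar channels known from seeds fell: tonoplast intrinsic protein 3.2 on chromosome 3 had 204.16, 200.89 and 162.45 FPKM in the SlLBD40 knockout, 204.32, 228.45 and 469.2 in the SlWRKY37 knockout and 984.04, 1109.96 and 772.55 in WT. Tonoplast intrinsic protein 3.1 had no overlap either: tonoplast intrinsic protein 3.1 on chromosome 6 had 145.4, 144.89 and 124.48, 119.28, 92.06 and 177.46, and 429.43, 531.23 and 309.44 FPKM in SlLBD40 knockout, SlWRKY37 knockout and WT libraries (adjusted p = 0.000958). The 5 aquaporins called higher in each knockout carry plasma membrane names, but in the average tonoplast intrinsic protein 4.1 on chromosome 8 and tonoplast intrinsic protein 2.1 on chromosome 12 rose too (log2 differences 1.14 and 1.15), and plasma membrane intrinsic protein 2.4 on chromosome 6 fell (-0.73). Of the 5, plasma membrane intrinsic protein 2.6 on chromosome 11 had 43.04, 54.99 and 39.35 FPKM in the SlLBD40 knockout, 48.34, 48.99 and 67.31 in the SlWRKY37 knockout and 21.14, 21.67 and 16.19 in WT (log2 difference 1.30, adjusted p = 0.00074). Plasma membrane intrinsic protein 2.9 had the smallest adjusted p of the list (plasma membrane intrinsic protein 2.9 on chromosome 10, log2 difference 1.05, adjusted p = 9.95e-05). In all, 8 of 19 tested aquaporins were higher (42.1%) and 4 lower (21.1%) in the average. Without WT replicate 1, 3 were higher in each knockout and 2 lower in the average, and without WT replicate 3 also 2 were lower in the average.

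Genes of raffinose sugars, small carbohydrates of dry seeds, and of trehalose, taken as 1 list, went both ways. Of 27 tested genes 7 were higher and 7 lower (25.9% each), and 4 in each direction were called in each knockout. Beside the alkaline alpha-galactosidase described above, Raffinose synthase family protein on chromosome 7 rose, with 42.54, 57.78 and 69.98 FPKM in the SlLBD40 knockout, 71.43, 89.72 and 54.87 in the SlWRKY37 knockout and 23.26, 26.71 and 20.58 in WT. Trehalose 6-phosphate phosphatase on chromosome 4 (copy 1), which makes trehalose, rose by 1.60 on the log2 scale (adjusted p = 0.00138), more in the SlLBD40 knockout (difference between the knockouts 0.80, adjusted p = 0.0395). Both counts in the average were 4 without WT replicate 1 or 2. The higher count in each knockout was 2 without WT replicate 3; the lower was 1 without WT replicate 1, and 2 without WT replicate 2 or 3, SlLBD40 knockout replicate 1 or 2 or SlWRKY37 knockout replicate 1.

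Several lists of cell wall genes had more members higher than lower. Expansins, which loosen walls, were higher at 8 of 15 tested genes (53.3%, beside 12.1% of all tested genes) and lower at 0. Xyloglucan endotransglucosylases, which cut and rejoin xyloglucan, were higher at 11 of 17 (64.7%) and lower at 2. Pectin-modifying enzymes were higher at 21 of 41 (51.2%) and lower at 1. The medians of the log2 difference were 0.79, 0.89 and 0.71. In the SlLBD40 knockout alone 6 expansins, 13 xyloglucan enzymes and 20 pectin enzymes were called higher, and in the SlWRKY37 knockout alone 5, 4 and 13. Called higher in each knockout were 4 expansins, 2 xyloglucan enzymes and 9 pectin enzymes. Leaving out a library lowered several of these counts: without WT replicate 1 the average had 4 expansins and 3 xyloglucan enzymes higher, without WT replicate 3 it had 2 xyloglucan enzymes, and without SlLBD40 knockout replicate 2 or 3 or SlWRKY37 knockout replicate 2 it had 7. The pectin count in each knockout was 3 without WT replicate 1, 4 without WT replicate 2 or 3 or SlWRKY37 knockout replicate 1 or 2, 5 without SlLBD40 knockout replicate 2 and 14 without SlWRKY37 knockout replicate 3. The expansin count in each knockout was 1 without WT replicate 1, SlLBD40 knockout replicate 3 or SlWRKY37 knockout replicate 2, and 2 without WT replicate 3, SlLBD40 knockout replicate 1 or 2 or SlWRKY37 knockout replicate 1. The xyloglucan count in each knockout was 1 without WT replicate 1 or 3 or SlWRKY37 knockout replicate 2. The counts of 2 and 1 lower genes moved by 1 gene without single libraries of each group.

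By gene, expansin 8 on chromosome 12 had 20.65, 22.88 and 34.39 FPKM in the SlLBD40 knockout, 51.86, 39.58 and 20.27 in the SlWRKY37 knockout and 5.48, 13.32 and 10.12 in WT (log2 difference 1.60, adjusted p = 0.00699). Xyloglucan endotransglucosylase/hydrolase on chromosome 2 had 14.19, 12.21 and 13.72 FPKM in the SlLBD40 knockout, 12.53, 13.49 and 7.58 in the SlWRKY37 knockout and 2.43, 3.6 and 2.53 in WT (adjusted p = 0.000456). Against the direction of its list, Xyloglucan endotransglucosylase/hydrolase on chromosome 7 (copy 3) fell, with 88.61, 72.71 and 88.39 FPKM in the SlLBD40 knockout, 110.33, 149.44 and 117.49 in the SlWRKY37 knockout and 158.25, 292.85 and 217.63 in WT. Pectinesterase on chromosome 3 (copy 7), which removes methyl groups from pectin, had 120.78, 116.15 and 97.38 FPKM in the SlLBD40 knockout, 67.38, 55.1 and 44.08 in the SlWRKY37 knockout and 37.36, 35.69 and 31.02 in WT. The 3 groups formed 3 separate steps, and the rise was larger in the SlLBD40 knockout (difference 1.01, adjusted p = 0.00243). The pectinesterase on chromosome 4 rose by 1.26 on the log2 scale (adjusted p = 0.00213).

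Glucanases, mannanases and chitinases, which digest wall glucans, mannans and chitin, were higher at 17 of 54 tested genes (31.5%) and lower at 6 (11.1%). Mannan endo-1,4-beta-mannosidase 1 on chromosome 4, of the enzyme class that breaks down the mannan of the endosperm wall, had 59.8, 55.67 and 57.78 FPKM in the SlLBD40 knockout, 157.35, 139.37 and 76.54 in the SlWRKY37 knockout and 20.39, 23.06 and 28.23 in WT. It rose in both, and more in the SlWRKY37 knockout (difference between the knockouts -1.03, adjusted p = 0.0114). The (1-4)-beta-mannan endohydrolase precursor on chromosome 6, of the same enzyme class, had 8.16, 12.31 and 18.16 FPKM in the SlLBD40 knockout, 25.32, 19.98 and 13.13 in the SlWRKY37 knockout and 3.24, 7.12 and 2.48 in WT (log2 difference 1.72, adjusted p = 0.00487). The beta-mannosidase enzyme on chromosome 3, which cleaves the sugars that mannanases release, was among the higher genes with the largest difference in level, at 706.98, 822.23 and 1050.72 FPKM in the SlLBD40 knockout, 1060.39, 1553.97 and 1048.53 in the SlWRKY37 knockout and 536.45, 569.32 and 580.65 in WT. Without WT replicate 1, 10 genes of the list were higher and 2 lower in the average, and without WT replicate 3, 3 were lower.

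Arabinogalactan and extensin proteins, structural glycoproteins of the wall, were higher at 12 of 38 tested genes (31.6%) and lower at 6 (15.8%). Pistil-specific extensin-like protein on chromosome 2 (copy 3) had 19.92, 26.55 and 25.19 FPKM in the SlLBD40 knockout, 30.57, 24.43 and 13.84 in the SlWRKY37 knockout and 4.91, 7.09 and 9.01 in WT (log2 difference 1.60, adjusted p = 0.00202). In the average 21 were higher without SlWRKY37 knockout replicate 3, and 3, 1 and 2 were lower without WT replicate 1, 2 or 3. Of the synthases of cellulose and callose, 4 of 29 were higher (13.8%) and 6 lower (20.7%), and Callose synthase 12 on chromosome 2 had 4.08, 4.31 and 4.61 FPKM in the SlLBD40 knockout, 6.28, 12.25 and 10.13 in the SlWRKY37 knockout and 24.71, 20.74 and 21.44 in WT (adjusted p = 0.00053). The higher count of these synthases was 2 without WT replicate 1 or 3 or SlLBD40 knockout replicate 2, and 7 without SlWRKY37 knockout replicate 3.

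Lipid-transfer proteins and GDSL esterases, secreted proteins that bind or cleave lipids, were higher more often than lower. Of 44 lipid-transfer genes 15 were higher (34.1%) and 5 lower (11.4%), and of 33 GDSL genes 13 were higher (39.4%) and 1 lower. Non-specific lipid-transfer protein on chromosome 1 (copy 6) had 3252.61, 4330.67 and 4750.18 FPKM in the SlLBD40 knockout, 3686.06, 4354.8 and 11147.38 in the SlWRKY37 knockout and 1545.53, 1556.52 and 1179.37 in WT. All knockout libraries exceeded WT, and replicate 3 of the SlWRKY37 knockout stood apart, now on the side away from WT. GDSL esterase/lipase on chromosome 3 (copy 6) had 47.09, 60.77 and 57.59 FPKM in the SlLBD40 knockout, 25.19, 19.1 and 20.54 in the SlWRKY37 knockout and 12.26, 7.13 and 8.78 in WT. The groups formed 3 separate steps, and the knockouts differed by 1.31 on the log2 scale (adjusted p = 0.00161). GDSL esterase/lipase on chromosome 11 (copy 8) had log2 differences from WT of 1.25 in the SlLBD40 knockout and 1.49 in the SlWRKY37 knockout, and the test between the knockouts did not call it (adjusted p = 0.531). The 1 lower GDSL gene was not called without any WT replicate, SlLBD40 knockout replicate 1 or 2 or SlWRKY37 knockout replicate 1. As a share of the library, lipid-transfer genes took 2.35 ± 0.177% in the SlLBD40 knockout, 2.34 ± 0.428% in the SlWRKY37 knockout and 1.38 ± 0.102% in WT. The lower count of lipid-transfer genes was 1 without WT replicate 1, 2 without WT replicate 3 or SlLBD40 knockout replicate 1 or 2, and 3 without SlLBD40 knockout replicate 3.

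**Figure D4:**
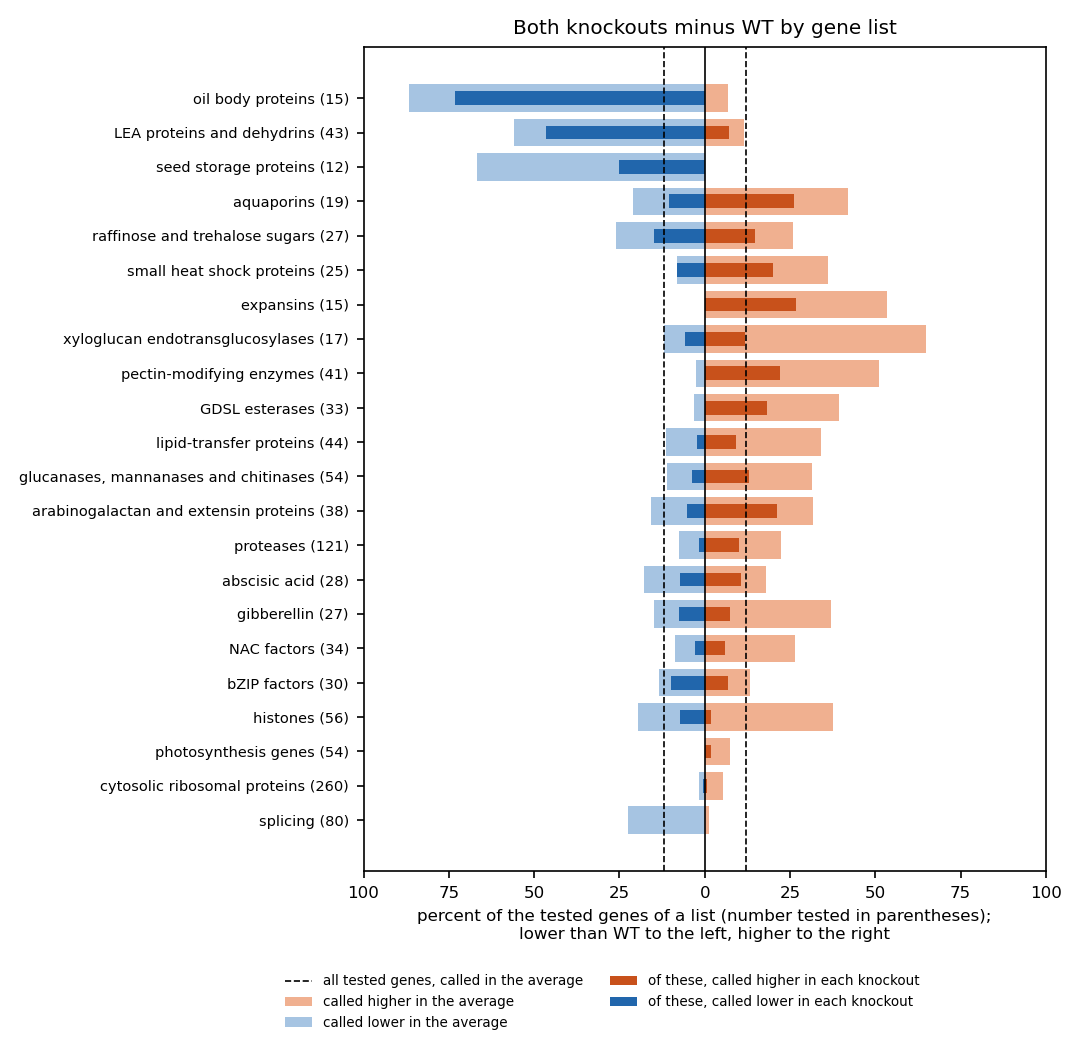
Percent of the tested genes of 22 gene lists called lower (left) and higher (right) in the average of both knockouts minus WT, as wide bars, and called in each knockout, as narrow bars. Dashed lines mark 11.8% lower and 12.1% higher among all 18346 tested genes; oil body, LEA and storage lists extend to the left and expansins, xyloglucan and pectin enzymes to the right.

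Abscisic acid genes had 5 of 28 tested members higher and 5 lower (17.9% each, beside 12.1% and 11.8% of all tested genes). The gene for abscisic acid receptor PYL4-like on chromosome 3 had 99.33, 106.66 and 137.98 FPKM in the SlLBD40 knockout, 125.4, 95.59 and 74.15 in the SlWRKY37 knockout and 48.63, 42.95 and 39.38 in WT (log2 difference 1.25, adjusted p = 0.00123), and the receptor gene Abscisic acid receptor PYL10 on chromosome 12 rose by 0.89 (adjusted p = 0.00146). ABSCISIC ACID-INSENSITIVE 5-like protein 5 on chromosome 1, a bZIP factor of abscisic acid responses, had 11.32, 15.11 and 15.35 FPKM in the SlLBD40 knockout, 19.5, 28.59 and 16.46 in the SlWRKY37 knockout and 52.56, 42.75 and 44.6 in WT. The groups did not overlap (adjusted p = 0.00083). ABSCISIC ACID-INSENSITIVE 5-like protein 7 on chromosome 1 was called in opposite directions, higher in the SlLBD40 knockout and lower in the SlWRKY37 knockout. The higher count was 3 without WT replicate 2 or 3.

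Gibberellin genes had 10 of 27 higher and 4 lower (14.8%) in the average, with 5 higher without WT replicate 3. The SlLBD40 knockout alone had 10 called higher and 5 lower, and the SlWRKY37 knockout alone 3 higher and 3 lower. Of all tested genes 37.2% were called in the SlLBD40 knockout and 9.38% in the SlWRKY37 knockout. Counts from such unlike totals cannot show whether both genotypes shared the excess of higher genes. The median log2 difference of the list was 0.557 in the SlLBD40 knockout and 0.163 in the SlWRKY37 knockout. For all tested genes these medians were -0.0232 and 0.0225. Called in each knockout in the same direction were 2 higher and 2 lower genes. Most of those called in each knockout belong to the gibberellin-regulated peptides, small cysteine-rich proteins whose transcripts respond to the hormone. Gibberellin-regulated protein on chromosome 6 had 42.97, 48.64 and 59.47 FPKM in the SlLBD40 knockout, 91.5, 77.13 and 55.72 in the SlWRKY37 knockout and 14.17, 19.99 and 22.43 in WT (log2 difference 1.65, adjusted p = 0.000633). Gibberellin-regulated protein 6 on chromosome 3 rose by 1.82 (adjusted p = 0.00458). Gibberellin-regulated protein on chromosome 4 went the other way, with 6.76, 6.49 and 9.17 FPKM in the SlLBD40 knockout, 13.54, 24.94 and 16.42 in the SlWRKY37 knockout and 48.76, 57.71 and 37.73 in WT. Gibberellin receptor on chromosome 6, through which the hormone is sensed, fell by 0.98 on the log2 scale (adjusted p = 0.0085). Of the enzymes, named here for their roles after their values were seen, gibberellin 20-oxidase-1 on chromosome 3, which makes active gibberellin, and gibberellin 2-oxidase 2 on chromosome 7, which inactivates it, were both higher in the average (adjusted p = 0.031 and 0.00412), while neither was called in the SlWRKY37 knockout alone (adjusted p = 0.0691 and 0.0545).

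Transcription factor families held single members that changed in both knockouts. Of 34 NAC factors 9 were higher (26.5%) and 3 lower (8.82%) in the average, beside 12.1% and 11.8% of all tested genes. In the average 4 and 3 were higher without WT replicate 2 or 3, and 5 were lower without SlWRKY37 knockout replicate 3. The SlLBD40 knockout alone had 11 NAC factors called higher and 2 lower, and the SlWRKY37 knockout alone 4 and 4. In each knockout 2 were higher (5.88%) and 1 lower (2.94%), beside 3.12% and 2.51% of all tested genes. NAC domain-containing protein on chromosome 11 (copy 1) had 626.21, 599.85 and 761.92 FPKM in the SlLBD40 knockout, 487.89, 363.22 and 450.28 in the SlWRKY37 knockout and 198.31, 175.61 and 250.96 in WT (log2 difference 1.37, adjusted p = 0.000447). Of 63 AP2/ERF factors, a family with many hormone and stress regulators, 12 were higher and 12 lower in the average (19.0% each). The SlLBD40 knockout alone had 20 AP2/ERF factors called higher and 10 lower, and the SlWRKY37 knockout alone 3 and 11. In each knockout 3 were higher and 5 lower, and both counts were 1 without WT replicate 1. At 30 of the 63 the knockouts differed from each other. Ethylene-responsive transcription factor on chromosome 4 (copy 6) had 75.52, 93.73 and 98.96 FPKM in the SlLBD40 knockout, 43.85, 56.43 and 41.47 in the SlWRKY37 knockout and 206.24, 154.23 and 207.46 in WT, and its neighbour in name, Ethylene-responsive transcription factor on chromosome 4 (copy 5), rose by 1.12 (adjusted p = 0.000758). The AP2/ERF higher count was 7 without WT replicate 3. Of 30 bZIP factors 4 were higher and 4 lower (13.3% each), with 2 higher without WT replicate 1 or 3; Basic-leucine zipper (BZIP) transcription factor family protein on chromosome 10 (copy 3) had 128.55, 111.75 and 110.25 FPKM in the SlLBD40 knockout, 110.51, 87.88 and 156.89 in the SlWRKY37 knockout and 248.17, 260.83 and 254.39 in WT. Among the families of the edited genes, 6 of 32 WRKY factors were higher (18.8%) and 1 lower in the average. Of 15 LOB domain factors 3 were higher (20.0%) and 0 lower, beside 12.1% and 11.8% of all tested genes. In the SlLBD40 knockout alone 11 WRKY factors were called higher and 2 lower, and in the SlWRKY37 knockout alone 1 and 4. For LOB domain factors these counts were 6 and 2, and 0 and 0. Called in each knockout in the same direction were 1 WRKY factor and no LOB domain factor. Without WT replicate 3, 1 LOB domain factor was higher.

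Proteases, which break down proteins, were higher more often than lower. Of 121 protease genes 27 were higher (22.3%) and 9 lower (7.44%), and 12 were higher in each knockout. Cysteine proteinase RD21a on chromosome 2, a vacuolar protease, had 1237.66, 1334.68 and 1346.95 FPKM in the SlLBD40 knockout, 2310.07, 2090.49 and 1548.94 in the SlWRKY37 knockout and 749.75, 832.16 and 789.02 in WT, a larger rise in the SlWRKY37 knockout (difference between the knockouts -0.58, adjusted p = 0.0157). The protease counts in the average were 15 higher without WT replicate 1, 17 without WT replicate 3 and 44 without SlWRKY37 knockout replicate 3, and 4 lower without any WT replicate and 5 without SlLBD40 or SlWRKY37 knockout replicate 1. The count higher in each knockout was 6 without WT replicate 1 or 3 and 20 without SlWRKY37 knockout replicate 3. Genes of the mitochondrial respiratory chain had 15 of 74 higher (20.3%) and 4 lower (5.41%) in the average, but 2 higher and 2 lower in each knockout (2.70% each, beside 3.12% and 2.51% of all tested genes). In the average 5, 8 and 7 were higher without WT replicate 1, 2 or 3, 2 were lower without WT replicate 1 and 7 without SlWRKY37 knockout replicate 2. In each knockout 5 were higher without SlWRKY37 knockout replicate 3 and 1 was when any one of the other 8 libraries was left out, and 1 was lower without WT replicate 1. Against the more frequent direction, alternative oxidase 2 on chromosome 1, which lets electrons bypass the proton pumps, fell, with 2.44, 2.31 and 2.83 FPKM in the SlLBD40 knockout, 3.75, 7.25 and 6.93 in the SlWRKY37 knockout and 15.21, 12.7 and 11.24 in WT. Hypoxia-responsive family protein on chromosome 6 had the largest rise in level after the lipid-transfer gene, at 4248.14, 5413.96 and 4038.8 FPKM in the SlLBD40 knockout, 5105.49, 1951.62 and 3065.6 in the SlWRKY37 knockout and 1292.44, 1542.41 and 1376.72 in WT (log2 difference 1.43, adjusted p = 0.00384).

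Histones, which package DNA, did not move together in the 2 genotypes. In the average 21 of 56 tested genes were higher (37.5%) and 11 lower (19.6%), but 1 was higher and 4 were lower in each knockout, and at 42 of 56 the knockouts differed from each other (75.0%, beside 27.0% of all tested genes). In the SlLBD40 knockout 35 were higher and 7 lower, and in the SlWRKY37 knockout 1 was higher and 13 were lower. Without WT replicate 1 or 2, 11 were higher and 6 lower in the average, and without WT replicate 3, 5 were lower. Without SlLBD40 knockout replicate 1 or 2, SlWRKY37 knockout replicate 2 or WT replicate 1 or 2, 2 were lower in each knockout. Histone H2B on chromosome 6 (copy 2) was among those lower in each, with 45.32, 44.17 and 33.5 FPKM in the SlLBD40 knockout, 34.98, 54.27 and 57.62 in the SlWRKY37 knockout and 107.96, 169.66 and 125.62 in WT. Photosynthesis genes had 4 of 54 higher (7.41%) and 0 lower in the average, beside 12.1% and 11.8% of all tested genes. Without SlWRKY37 knockout replicate 3, 7 were higher. At 35 of the 54 the knockouts differed from each other. In the SlLBD40 knockout alone 13 were higher and 1 lower, and in the SlWRKY37 knockout alone 2 were higher and 8 lower. Of 80 splicing genes 18 were lower in the average (22.5%) but 0 in each knockout, since 40 were lower in the SlLBD40 knockout and 0 in the SlWRKY37 knockout. Of 260 cytosolic ribosomal protein genes 14 were higher (5.38%) and 4 lower (1.54%). The higher count depended on the scaling, with 40 under median-ratio scaling and 32 under quantile normalization or equal library totals, as did the lower count, with 9 under quantile normalization and 7 under median-ratio scaling. The higher count also depended on single libraries, with 0 higher without WT replicate 1, 32 without SlWRKY37 knockout replicate 3, and 8 or 9 without any SlLBD40 knockout replicate, SlWRKY37 knockout replicate 1 or WT replicate 2 or 3. The lower count was 2 without SlLBD40 knockout replicate 1 or 3 or WT replicate 1 or 2, and 9 without SlWRKY37 knockout replicate 2. The splicing count was 6, 7 and 10 without WT replicate 1, 2 or 3, 11 without SlLBD40 knockout replicate 2 and 29 without SlWRKY37 knockout replicate 2.

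The test between the knockouts called 4953 of all 18346 tested genes (27.0%). Of the 1033 genes called the same way it called a smaller share, 228. The choice of genes with called changes of the same sign from these same libraries shapes that share. It is thus a description only. These 228 had the larger change in the SlLBD40 knockout at 158 genes and in the SlWRKY37 knockout at 70. Threonine--tRNA ligase, cytoplasmic on chromosome 7, which charges a transfer RNA, was one of them, with 15.48, 20.42 and 16.56 FPKM in the SlLBD40 knockout, 46.11, 60.49 and 72.9 in the SlWRKY37 knockout and 143.21, 187.84 and 127.99 in WT. The groups formed 3 separate steps (difference between the knockouts -1.70, adjusted p = 0.000462).

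Genes called in opposite directions numbered 92 (0.501%), 75 of them higher in the SlLBD40 and lower in the SlWRKY37 knockout and 17 the reverse. All 92 were also called between the knockouts, which the choice of genes with opposite changes from the same WT all but fixes. Inorganic pyrophosphatase 1 on chromosome 3 (copy 1), which splits pyrophosphate, had 10.24, 10.4 and 10.01 FPKM in the SlLBD40 knockout, 0.14, 0.31 and 0.32 in the SlWRKY37 knockout and 3.92, 2.49 and 2.78 in WT, with WT between and no overlap. The gene described as putrescine N-methyltransferase,Pfam:PF01564 on chromosome 6, of a family of polyamine enzymes, had 64.54, 55.56 and 64.62, 3.39, 4.57 and 5.52, and 18.24, 11.6 and 31.11 FPKM in SlLBD40 knockout, SlWRKY37 knockout and WT libraries. Calcium-dependent protein kinase on chromosome 12 (copy 2), a signalling kinase, went the other way, at 37.45, 36.78 and 49.82 FPKM in the SlLBD40 knockout, 165.84, 140.33 and 141.19 in the SlWRKY37 knockout and 85.03, 63.34 and 70.78 in WT. In the average these 3 genes were not called, with log2 differences of -0.10, -0.11 and 0.11.

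**Figure D5:**
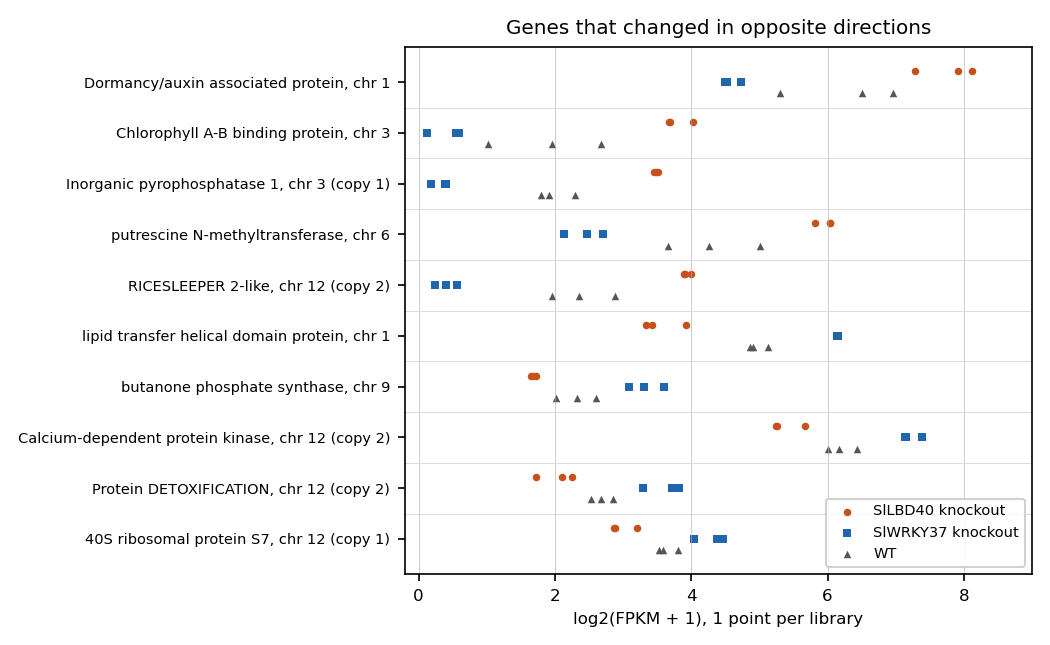
Level of the 10 named genes that changed in opposite directions, with 1 point per library on a log2(FPKM + 1) axis and the groups stacked in the order SlLBD40 knockout, SlWRKY37 knockout, WT. WT points lie between those of the knockouts; the 5 upper genes were higher in the SlLBD40 knockout and the 5 lower genes higher in the SlWRKY37 knockout.

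Markers of the tissues a seed sample could hold were summed as percent of a library. Genes that mark seed embryo and endosperm, which include the oleosin, LEA and storage genes above, took 2.27 to 2.81% in the SlLBD40 knockout, 2.56 to 4.61% in the SlWRKY37 knockout and 6.78 to 8.61% in WT, with 35 of 55 tested genes lower and 6 higher in the average. Genes that mark the germinating endosperm cap took 0.152 to 0.157%, 0.101 to 0.119% and 0.104 to 0.119%, so that only the SlLBD40 knockout lay above WT, with 15 of 48 tested genes higher and 6 lower in the average. Green tissue genes took 0.0717 to 0.0954%, 0.025 to 0.0401% and 0.0356 to 0.0798%, with 67 of 183 at 0 in every library and 4 of 50 tested genes higher, and ripe fruit genes 0.084 to 0.131%, 0.0326 to 0.0528% and 0.0372 to 0.0626%, with 6 of 25 at 0 and, of 12 tested, 3 higher and 2 lower. Both seed coat markers found were at 0 in every library. The part of tissue composition in the results above was not tested.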

How the data were processed

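RNA from whole seeds was extracted with a column kit and made into mRNA sequencing libraries, per the labels' protocols. The deposited values were taken as FPKM, since no header names a unit and the library sums differ; TPM over a larger set of genes is not excluded. The WT replicate 1 column touches the gene descriptions in the deposited table, so that field holds text and a value (unit other) and was read by character position. TopHat2, HISAT2, StringTie and Cufflinks are named in the submitters' processing notes, with no roles; for genome build and annotation, the entry is: not given in the sources used here. Of 40229 rows, 34075 were coding genes and 6154 RNA genes. All but 3666 IDs were shortened to 8 characters, so genes are named by description, chromosome and copy number, in row order, and near-identical copies are uncertain.

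The 18346 genes whose 9 values averaged 1 or more were tested on log2(value + 1) with limma 3.58.1 in R 4.3.3 (moderated test with a trend, 1 fit of 3 groups of 3), with Benjamini-Hochberg adjustment over all tested genes and a threshold of 0.05. Contrasts were the mean of both knockouts minus WT, each knockout minus WT, and SlLBD40 minus SlWRKY37 knockout. Log2 differences are on the log2(value + 1) scale, which understates changes of low genes. The script was tested on simulated data. Tables and plots used Python 3.11.15, pandas 2.3.3, numpy 2.4.6 and matplotlib 3.10.9.

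Genes were named by rule: called the same way in each knockout with no overlap with WT, at least 5 FPKM on the higher side and an informative description; the 12 per direction with the largest smaller change, the 6 per direction with the largest difference in level, up to 3 per list with 3 or more such genes, and 5 per orientation among opposite genes. Genes named beside these as exceptions or list members (Caleosin and Oleosin exceptions, the rising LEA gene, expansin 8, other aquaporins than the 3 named by rule, 11-S seed storage protein, the gibberellin receptor and oxidases and ABSCISIC ACID-INSENSITIVE 5-like protein 7) were chosen after their values were seen. Members, lists (text patterns in the descriptions, 57 in all) and rules were chosen with earlier results of these data known, and list patterns were corrected after the descriptions were read. For that reason no p-value is given for a list or a share, although an exact permutation test of shares was planned. Alternatives were other pseudocounts, filters, scalings, contrasts, a replicate block and leaving out each library.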

Additional observations from a re-analysis of the deposited data

Results flagged for a closer look

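Values here are log2 differences, SlLBD40 knockout minus SlWRKY37 knockout, for genes named in the comparison of both knockouts with WT. Each gene is given because limma called a difference between the genotypes themselves (Benjamini-Hochberg adjusted p between 1.56e-05 and 0.0448); no explanation was tested.

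Of the 10 genes that moved in opposite directions, those higher in the SlLBD40 knockout had the largest differences. These were 3.54 for zinc finger BED domain-containing protein RICESLEEPER 2-like on chromosome 12 (copy 2), 3.525 for the putrescine N-methyltransferase gene on chromosome 6, 3.37 for Chlorophyll A-B binding protein on chromosome 3, which holds light-harvesting pigment, 3.19 for Dormancy/auxin associated protein on chromosome 1 and 3.16 for Inorganic pyrophosphatase 1 on chromosome 3 (copy 1). The Dormancy/auxin associated protein gene had 277.88, 240.46 and 155.35 FPKM in the SlLBD40 knockout, 21.47, 25.63 and 21.99 in the SlWRKY37 knockout and 90.11, 38.34 and 123.95 in WT. Higher in the SlWRKY37 knockout were Bifunctional inhibitor/plant lipid transfer protein/seed storage helical domain containing protein on chromosome 1 (-2.58), Calcium-dependent protein kinase on chromosome 12 (copy 2) (-1.835), 4-dihydroxy-2-butanone 4-phosphate synthase (chloroplast) on chromosome 9, a riboflavin enzyme (-1.65), Protein DETOXIFICATION on chromosome 12 (copy 2), an efflux carrier (-1.58), and 40S ribosomal protein S7 on chromosome 12 (copy 1) (-1.31).

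Among genes that rose in each knockout, the rise was larger in the SlLBD40 knockout for GDSL esterase/lipase on chromosome 3 (copy 6) (1.31) and on chromosome 1 (copy 4) (1.21), auxin-regulated protein AF416289 on chromosome 6 (1.08), Pectinesterase on chromosome 3 (copy 7) (1.01), L-ascorbate oxidase on chromosome 11 (0.96), Trehalose 6-phosphate phosphatase on chromosome 4 (copy 1) (0.80), bHLH transcription factor 052 on chromosome 7 (0.71), NAC domain-containing protein on chromosome 11 (copy 1) (0.61), metallocarboxypeptidase inhibitor precursor on chromosome 6 (0.60) and Pectate lyase on chromosome 3 (copy 3) (0.57). The rise was larger in the SlWRKY37 knockout for Mannan endo-1,4-beta-mannosidase 1 on chromosome 4 (-1.03), Arabinogalactan peptide on chromosome 10 (-0.59) and Cysteine proteinase RD21a on chromosome 2 (-0.58).

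Among genes that fell in each knockout, most of those listed here fell further in the SlLBD40 knockout. They included seed genes, namely Vicilin-like antimicrobial peptides 2-1 on chromosome 9 (-1.85), oleosin S1-2-like on chromosome 7 (-1.32), 2S sulfur-rich seed storage protein 2-like on chromosome 8 (-1.24) and Late embryogenesis abundant protein on chromosome 6 (-1.04) and on chromosome 9 (copy 2) (-0.59). The others were Threonine--tRNA ligase, cytoplasmic on chromosome 7 (-1.70), plant/protein on chromosome 9 (copy 2) (-1.17), Gibberellin-regulated protein on chromosome 4 (-1.16), Ethylene-responsive transcription factor on chromosome 3 (copy 4) (-1.03), alternative oxidase 2 on chromosome 1 (-0.94), Callose synthase 12 on chromosome 2 (-0.94), Cytochrome P450 on chromosome 1 (copy 8) (-0.91) and protein phosphatase 2C on chromosome 7 (-0.38). The fall was larger in the SlWRKY37 knockout for Ethylene-responsive transcription factor on chromosome 4 (copy 6) (0.91), Ribosomal protein S5 on chromosome 3 (0.84), Basic-leucine zipper domain on chromosome 9 (0.75), NAC domain-containing protein on chromosome 11 (copy 2) (0.64) and Histone H4 on chromosome 6 (copy 7) (0.415).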

How the results depend on the processing

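The average of both knockouts called 4392 genes, the same direction in each knockout 1033, and the difference between the knockouts 4953. With an absolute log2 change of at least 1 required as well, these counts were 931, 343 and 1499, by construction. With the 6 knockout libraries as 1 group, 1277 genes were called in the average, since differences between the genotypes then count as spread. With each knockout fitted with WT alone, 524 genes were called in both, with the larger of both p-values adjusted 500, and with a rule of average called, same sign and knockouts not called as different 2518. Leaving out 1 library gave 2000 to 5297 genes in the average, 462 to 1639 in the same direction in each knockout, and 2282 to 5192 between the knockouts. The lowest values of the first 2 were without WT replicate 1 and their highest without SlWRKY37 knockout replicate 3. Under other scalings, filters and pseudocounts the counts were 3703 to 5631, 743 to 1443 and 4134 to 6087, each within 1.5 times.

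Whether equal replicate numbers mark paired samples is not known. Deviations from the group means correlated at -0.105 to 0.063 in the 9 same-numbered pairs of libraries. Differently numbered pairs correlated at -0.153 to 0.213. With 3 libraries per group these correlations cannot exclude pairing. With a replicate block the counts were 3436, 714 and 4117.

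The share of the library total, mean of the knockouts minus WT, was -0.634 percentage points for oil body genes (-0.73 to -0.581 without 1 library) and -3.99 for LEA and dehydrin genes (-4.35 to -3.64). Without the most abundant member it was -0.436 and -1.92. For lipid-transfer genes it was 0.967 (0.851 to 1.06). Of that, a large part came from 1 gene, Non-specific lipid-transfer protein on chromosome 1 (copy 6), with a mean of 5250 FPKM in the knockouts and 1430 in WT.

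Of 148 named genes, 138 were called in the average, 13 of which missed the threshold for the average under some of 16 settings. None changed direction in the average. Among the 13, Reticulon-like protein on chromosome 8 was not called in the average without WT replicate 2 or 3 (limma, adjusted p = 0.0567 and 0.0509). With a minimum mean of 5, 136 of the 148 genes were tested. How the calls of named genes in each knockout held under these settings is not given here. Depth is unknown, so values near 0 carry no counting interval.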

Other observations

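Several genes called in each knockout in the same direction stood outside the naming rule and were chosen after their values were seen. An RNA gene without description on chromosome 6 had the largest rise, with 27.05, 36.95 and 62.23 FPKM in the SlLBD40 knockout, 278.12, 45.54 and 92.03 in the SlWRKY37 knockout and 3.49, 2.22 and 3.83 in WT (log2 difference 3.30 in the SlLBD40 and 4.69 in the SlWRKY37 knockout; adjusted p = 0.00074 in the average, limma with Benjamini-Hochberg). The groups did not overlap, and replicate 1 of the SlWRKY37 knockout stood apart. Unknown protein on chromosome 9 (copy 40) was listed at 0 in all 6 knockout libraries and at 10.57, 14.96 and 16.22 FPKM in WT (adjusted p = 1.99e-05).

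Regulators of development were among these genes. MADS-box protein SOC1 on chromosome 2, named after an Arabidopsis promoter of flowering, had 2.73, 3.25 and 7.87 FPKM in the SlLBD40 knockout, 6.71, 4.06 and 2.06 in the SlWRKY37 knockout and 0.14, 0.29 and 0.18 in WT (log2 difference 2.07, adjusted p = 0.00274). MADS box transcription factor AGAMOUS on chromosome 4, named after an Arabidopsis regulator of flower organs, had 14.44, 12.52 and 15.23 FPKM in the SlLBD40 knockout, 7.05, 5.76 and 6.56 in the SlWRKY37 knockout and 2.17, 2.46 and 5.16 in WT. Both rose with no overlap between knockouts and WT. Nuclear transcription factor Y subunit B-9 on chromosome 5 (copy 3), whose Arabidopsis namesake is the embryo regulator LEC1, had 0, 0.29 and 0.52 FPKM in the SlLBD40 knockout, 0.14, 1.23 and 0.2 in the SlWRKY37 knockout and 7.21, 5.34 and 3.83 in WT (log2 difference -2.23, adjusted p = 0.000944). Low-temperature-induced 65 kDa protein on chromosome 1, of a family that responds to drying and abscisic acid, had 75.14, 75.4 and 50.15 FPKM in the SlLBD40 knockout, 58.5, 66.05 and 134.14 in the SlWRKY37 knockout and 410.27, 358.26 and 300.96 in WT (log2 difference -2.27, adjusted p = 0.000584).

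Small heat shock proteins, chaperones of dry and heated cells, had 9 of 25 tested genes higher (36.0%) and 2 lower (8%) in the average, beside 12.1% and 11.8% of all tested genes. Of them small heat shock protein 1 on chromosome 5 had 73.71, 88.82 and 85.31 FPKM in the SlLBD40 knockout, 77.51, 62.77 and 80.11 in the SlWRKY37 knockout and 34.51, 24.66 and 38.85 in WT (log2 difference 1.25, adjusted p = 0.00074). The higher count was 4 without WT replicate 1 or 2 and 3 without WT replicate 3, and the lower count was 4 without SlLBD40 knockout replicate 2.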
